A study of Mus musculus with 12 samples.

Results

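MLL-AF9 leukemia cells were compared between 3 hosts for 10 genes that mark resident macrophages, the long-lived macrophages that live in a tissue. The genes are C1qa, C1qb, C1qc, Adgre1, Vcam1, Mrc1, Hmox1, Slc40a1, Axl and Cd5l, and all 10 were present among the 55401 genes of the deposited table. The list was chosen by name, without a limit on any value, but it was drawn up when the TPM differences between the hosts in these same libraries were already known. Those differences are therefore given here as a description and without p-values.

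The cells descend from mouse bone marrow progenitors that were transduced with the MLL-AF9 fusion oncogene together with GFP, and they had been passed through mice many times, most recently without irradiation. They were then transplanted into young adult female hosts of 3 kinds, wild-type (WT) C57BL/6, Rag2-/- and NSG. Rag2-/- mice, also on the C57BL/6 background, cannot rearrange antigen receptor genes and lack mature T and B cells. NSG mice lack T, B and NK cells, and their macrophages are also impaired. The cells of all 3 hosts carried the same oncogene and had a common history, the Rag2 and NSG defects belonged to the host and not to the transplanted cells, and the leukemia is a single serially passaged line. RNA came from GFP+ cells of the bone marrow of moribund mice, with 4 libraries per host labelled as biological replicates.

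Macrophages of bone marrow and spleen take up dying cells and old red blood cells. C1q, the recognition molecule of the classical complement pathway, coats dying cells and immune complexes and is made largely by macrophages. Axl is a receptor kinase that senses dying cells through its bridging ligand Gas6, and Mrc1 and Cd5l serve uptake and survival. Hmox1 breaks down the haem of engulfed red cells, and Slc40a1 (ferroportin) exports the iron that is set free.

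Values are in TPM, a transcript level corrected for length and scaled so that each library sums to 1000000. Whole reads could be recovered from the TPM and the exon lengths, which gave depths of 16.0 to 42.8 in units of 1000000 reads per library, and 3 reads on a transcript of 1 kb corresponded to 0.249 to 0.647 TPM. Most of the low values were even numbers of reads, and if both mates of a pair were counted the depths in fragments are 8.004 to 21.4 in the same unit. Hoxa9, a target gene of MLL fusions, was at 208 ± 4.51 TPM (SD, n = 4) in WT, 224 ± 18.4 in Rag2-/- and 208 ± 13.8 in NSG libraries. Elane, an enzyme gene of granulocyte precursors, was the most abundant gene of the leukemia and progenitor list at 10871 ± 583 TPM (SD, n = 4) in WT, 9789 ± 915 in Rag2-/- and 11622 ± 1900 in NSG libraries. Rag2 was at 0.510 to 0.642 TPM in the libraries labelled Rag2-/- and at 0 to 1.22 TPM in WT, and it does not check the labels, since the transplanted cells keep their own Rag2 gene.

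The 10 genes fell into 2 ranges of level, a division made after their values were seen. Hmox1, Adgre1, Slc40a1 and Vcam1 had means of 29.9 to 56.99 TPM over the 12 libraries, and C1qb, C1qa, C1qc, Mrc1, Axl and Cd5l had means of 1.41 to 4.06 TPM. The low group was summed at 10.0 ± 3.46 TPM (SD, n = 4) in WT, 26.8 ± 8.84 in Rag2-/- and 6.63 ± 0.639 in NSG libraries, and the lowest Rag2-/- library (19.3 TPM) lay above the highest of the other hosts (13.3 TPM). The high group was summed at 167 ± 11.99, 196 ± 2.64 and 160 ± 21.3 TPM in the same order. The Rag2-/- libraries were thus the highest in both groups, by a larger factor among the low genes.

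**Figure D1:**
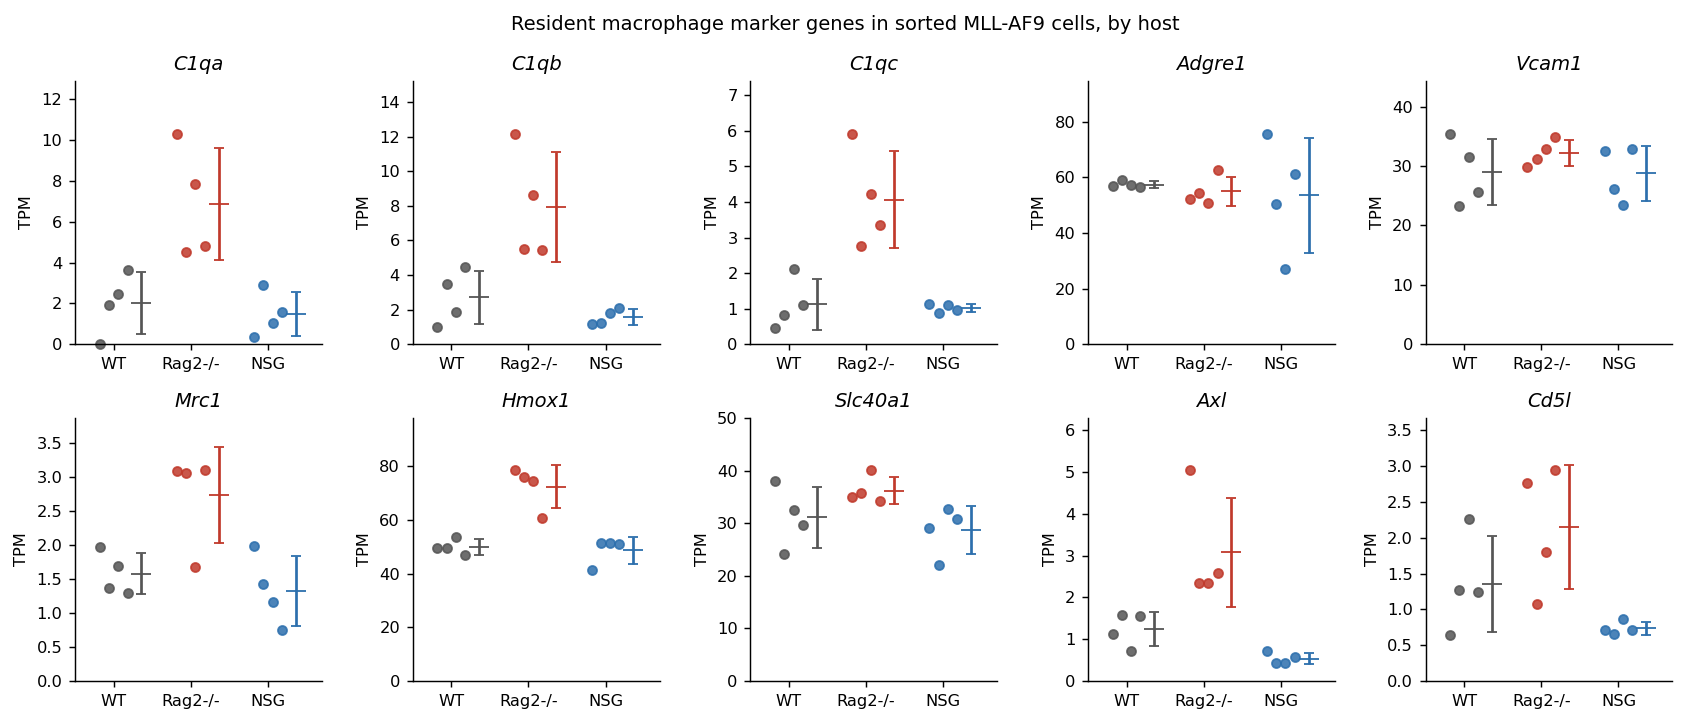
TPM of each of the 10 genes (vertical axes from 0) in WT, Rag2-/- and NSG libraries. Points are libraries in the order of replicates 1 to 4, and the bars beside them are the mean ± SD (n = 4). The 4 Rag2-/- libraries of C1qa, C1qb, C1qc, Axl and Hmox1 lie above all 8 other libraries, and those of Adgre1 and Vcam1 lie within the range of the others.

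The C1q genes encode the 3 chains of the C1q molecule and lie next to each other on chromosome 4 of mm10, all on the minus strand, within 18675 bases. C1qb (bases 136880129 to 136886187), C1qc (136889804 to 136893065) and C1qa (136895917 to 136898803) are protein-coding genes of 3 exons each in GENCODE M21. Their start regions are shown because the chains are used together and had like patterns over the libraries. The stretches below end at the base before the outermost annotated start (GRCm38.p6, from RefSeq), at chr4:136886201-136886450 for C1qb and chr4:136893066-136893164 for C1qc, both read on the minus strand. Capitals mark GAGGAA or its reverse TTCCTC, the core bound by the myeloid factor PU.1, and TGCTGA or its reverse TCAGCA, a half-site of MAF factors.
C1qb: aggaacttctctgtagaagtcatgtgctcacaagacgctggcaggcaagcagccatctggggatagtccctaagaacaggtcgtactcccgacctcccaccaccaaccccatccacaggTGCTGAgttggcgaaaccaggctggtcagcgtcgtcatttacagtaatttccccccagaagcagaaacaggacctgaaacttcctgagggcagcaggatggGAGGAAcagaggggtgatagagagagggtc
C1qc: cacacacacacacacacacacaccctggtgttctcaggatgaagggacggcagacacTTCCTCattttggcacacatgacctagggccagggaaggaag
Windows from 250 bases before to 50 after the RefSeq start were at hand for 5 of the 10 genes (C1qb, C1qc, Axl, Mrc1 and Cd5l). The PU.1 core, on either strand, was in all 5 windows and in 28.3% of 32851 windows of the same length over all genes. The MAF half-site was in 2 of the 5 (C1qb and Cd5l) and in 19.5% of all windows. An AP-1 site (TGACTCA or TGAGTCA) was in 0 of the 5 and in 5.20% of all windows, and a TATA box (TATAAA or TTTATA) was in 0 of the 5 and in 13.6% of all. These matches describe letters only. Spi1, the gene of PU.1, was at 558 ± 15.9 TPM in WT, 623 ± 29.8 in Rag2-/- and 577 ± 7.04 in NSG libraries (SD, n = 4).

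C1qa was at 0, 1.91, 2.46 and 3.66 TPM in the WT libraries, at 10.3, 4.53, 7.86 and 4.80 TPM in the Rag2-/- libraries, and at 0.346, 2.90, 1.02 and 1.58 TPM in the NSG libraries. All 4 Rag2-/- libraries were above the 8 others, whose WT and NSG values overlapped. The counts behind these levels were small, with 48 reads in WT, 237 in Rag2-/- and 42 in NSG libraries together. In WT replicate 1 no read was found, which allows a level of up to 0.622 TPM, and this limit covers counting error only. If both mates of a pair were counted, the limit is 1.24 TPM. The log2 fold change of (TPM + 1) was 1.53 ± 0.46 (SE) in Rag2-/- over WT and 1.72 ± 0.46 over NSG, and the ratios of the mean TPM were 3.43 and 4.70.

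C1qb was at 0.991, 3.46, 1.88 and 4.47 TPM in WT, at 12.2, 5.48, 8.64 and 5.43 TPM in Rag2-/- and at 1.16, 1.23, 1.79 and 2.08 TPM in NSG libraries. Again the Rag2-/- libraries did not overlap with those of either other host. C1qc was at 0.446, 0.821, 2.12 and 1.09 TPM in WT, at 5.92, 2.76, 4.23 and 3.36 TPM in Rag2-/- and at 1.12, 0.868, 1.10 and 0.960 TPM in NSG libraries, and it was parted in the same way. The log2 fold changes of Rag2-/- over WT were 1.31 ± 0.32 for C1qb and 1.28 ± 0.26 for C1qc, and those over NSG were 1.75 ± 0.32 and 1.30 ± 0.26. Between NSG and WT the libraries of all 3 genes overlapped, with log2 fold changes of -0.19 ± 0.46 for C1qa, -0.44 ± 0.32 for C1qb and -0.02 ± 0.26 for C1qc.

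The 3 chains were present in nearly the same proportions in each Rag2-/- library. As shares of their summed TPM, C1qa made up 35.3% to 37.9%, C1qb 40.0% to 42.9% and C1qc 20.4% to 24.7% of a Rag2-/- library. In the other hosts, where 9 to 68 reads per library stood behind the 3 genes together, the shares scattered widely, with C1qa between 0% and 39.7% in WT and between 13.2% and 58.0% in NSG libraries. The shares of the mean levels were closer, at 34.4%, 46.3% and 19.2% for C1qa, C1qb and C1qc in WT, 36.4%, 42.0% and 21.6% in Rag2-/- and 36.2%, 38.7% and 25.0% in NSG. Rag2-/- replicate 1 had the highest value of each chain, and its sum of 28.4 TPM compared with 12.8 to 20.7 TPM in the other Rag2-/- libraries. Over the 12 libraries, Pearson's r of log2(TPM + 1) was 0.90 between C1qa and C1qb, 0.85 between C1qa and C1qc and 0.86 between C1qb and C1qc, and after the host means were removed it was 0.74, 0.58 and 0.48. These are descriptions, since the genes were measured in the same libraries, which differ in depth and host.

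**Figure D2:**
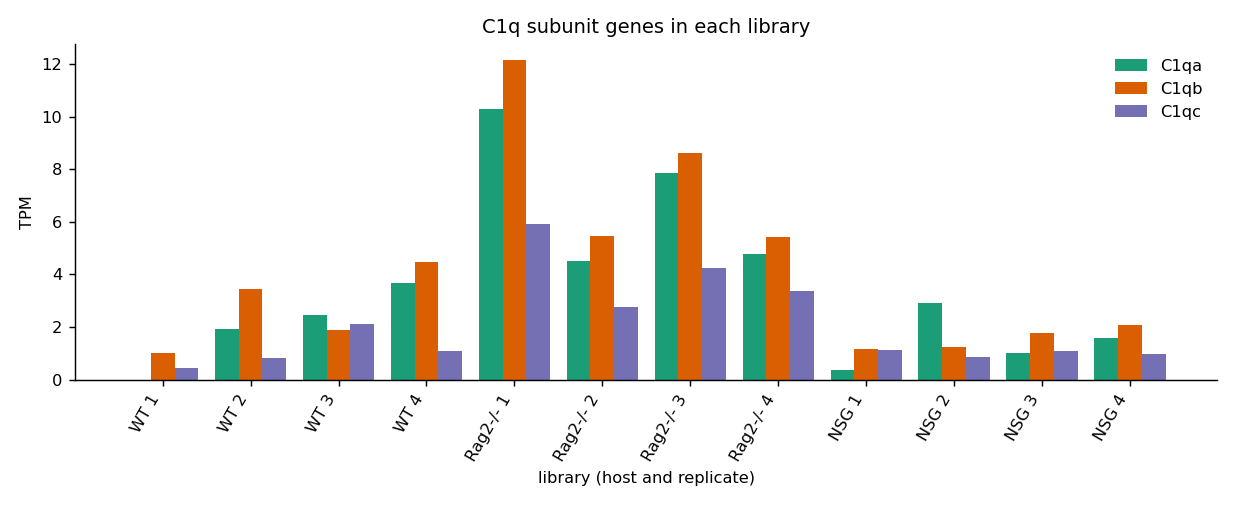
TPM of C1qa, C1qb and C1qc (bars from 0) in each of the 12 libraries. Each Rag2-/- library shows the order C1qb, C1qa, C1qc from high to low, and in the WT and NSG libraries, with 9 to 68 reads for the 3 genes together, the order varies.

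The enzymes that join C1q in the first complement component were at low levels. C1ra was at 0.757 ± 0.300 TPM in WT, 0.469 ± 0.236 in Rag2-/- and 0.561 ± 0.148 in NSG libraries. It had 47, 52 and 45 reads over the libraries of each host in that order, beside 48, 237 and 42 for C1qa. C1s1 and C1s2 had means of 0.0141 to 0.1001 TPM in the 3 hosts, and C1rb was listed at 0 in every library. Other complement genes were abundant, with C4b as the highest at 583 ± 47.1, 497 ± 27.9 and 443 ± 41.4 TPM in WT, Rag2-/- and NSG libraries. Of the 26 genes of the complement list 14 were tested. Fcna, a lectin of the complement system that macrophages make, passed the call limits in Rag2-/- over WT by a narrow margin (log2 fold change 1.20 ± 0.29, adjusted p = 0.04996), and 0 genes fell. It had means of 0.797 TPM in WT and 0.589 TPM in NSG libraries, so it passed the filter on low values only through the Rag2-/- libraries. Over all genes tested, 1.14% were called higher and 0.326% lower in Rag2-/- over WT. Over NSG 0 of the 14 were called with limma, with 6 at an unadjusted p-value below 0.05, and the adjusted p of Fcna was 0.0835. The median log2 fold change of the 14 genes was 0.09, beside 1.28 to 1.53 for the C1q chains in the same comparison.

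Axl was at 1.11, 1.58, 0.712 and 1.55 TPM in WT, at 5.04, 2.34, 2.35 and 2.58 TPM in Rag2-/- and at 0.715, 0.433, 0.421 and 0.573 TPM in NSG libraries. The Rag2-/- libraries lay above all others, and replicate 1 stood apart from the other 3. The log2 fold change was 0.84 ± 0.24 over WT and 1.37 ± 0.24 over NSG. NSG libraries were lower than WT libraries by 0.53 ± 0.24 on the log2 scale, and the lowest WT value (0.712 TPM) was just below the highest NSG value (0.715 TPM). The ratio of the mean TPM was 2.49 for Rag2-/- over WT and 5.75 over NSG, the latter the highest of the 10 genes. That ratio rests on 12 to 28 reads per NSG library. On the log2 scale of (TPM + 1), C1qb (1.75) and C1qa (1.72) were above Axl in Rag2-/- over NSG.

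The partners of Axl were at other levels. Gas6 was at 0.265 ± 0.0570 TPM in Rag2-/- libraries and at means of 0.0634 and 0.0347 TPM in WT and NSG, on 3, 8 and 2 reads at most in a single library of WT, Rag2-/- and NSG. Pros1, another bridging ligand, was at 27.3 ± 1.89, 37.5 ± 6.18 and 30.8 ± 2.57 TPM in WT, Rag2-/- and NSG libraries. The sister receptor Mertk was at 0.382 ± 0.269, 0.778 ± 0.249 and 0.117 ± 0.135 TPM, and Tyro3 did not exceed a mean of 0.0740 TPM. Of the 18 genes listed for these receptors and for the uptake of dying cells, 10 were tested. In Rag2-/- over WT 2 rose and 0 fell, beside 1.14% of all genes called higher and 0.326% called lower. The 2 higher genes were Anxa1, which dampens inflammation and marks dying cells, at 102 ± 19.8 TPM in WT and 191 ± 23.5 in Rag2-/- (log2 fold change 0.91 ± 0.13, adjusted p = 0.00680), and the lipid receptor Cd300lf, at 14.2 ± 2.54 and 30.2 ± 5.58 TPM (1.04 ± 0.17, adjusted p = 0.0136). Over NSG, 0 of the 10 were called with limma and 5 had an unadjusted p-value below 0.05. Anxa1 was at 120 ± 13.01 TPM in NSG libraries (Rag2-/- over NSG 0.66 ± 0.13, adjusted p = 0.0609), and Cd300lf was at 19.7 ± 4.61 TPM, with overlapping libraries (0.60 ± 0.17, adjusted p = 0.158). The most abundant gene of the list, the integrin gene Itgb5, was at 303 ± 15.4, 303 ± 22.9 and 296 ± 17.3 TPM in WT, Rag2-/- and NSG.

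Mrc1, the mannose receptor CD206, was at 1.96, 1.37, 1.69 and 1.29 TPM in WT, at 3.09, 3.06, 1.67 and 3.09 TPM in Rag2-/- and at 1.98, 1.42, 1.16 and 0.743 TPM in NSG libraries. In Rag2-/- mice 3 libraries lay close together above every other library, and replicate 3 lay among the WT and NSG values, so the hosts overlapped. Cd5l, a protein secreted by macrophages that keeps them alive, was at 0.635, 1.27, 2.26 and 1.25 TPM in WT, at 2.76, 1.08, 1.81 and 2.94 TPM in Rag2-/- and at 0.707, 0.658, 0.868 and 0.708 TPM in NSG libraries. It overlapped between Rag2-/- and WT, while every Rag2-/- library was above every NSG library. The log2 fold changes of Rag2-/- over WT and over NSG were 0.52 ± 0.22 and 0.68 ± 0.22 for Mrc1 and 0.42 ± 0.26 and 0.81 ± 0.26 for Cd5l. Cd5l and Axl were the 2 genes with a mean under 1 TPM in NSG libraries.

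Hmox1 was at 49.6, 49.5, 53.8 and 46.7 TPM in WT, at 78.4, 75.9, 74.4 and 60.6 TPM in Rag2-/- and at 41.2, 51.3, 51.3 and 51.1 TPM in NSG libraries. It was the only abundant gene of the 10 whose Rag2-/- libraries lay above all 8 others, and it had 387 reads or more in every library. The log2 fold change was 0.52 ± 0.09 over WT and 0.56 ± 0.09 over NSG, just beyond the limit of 0.5 used for calls. NSG and WT libraries overlapped, with a log2 fold change of -0.04 ± 0.09.

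Slc40a1 was at 38.1, 24.1, 32.6 and 29.6 TPM in WT, at 35.0, 35.7, 40.1 and 34.2 TPM in Rag2-/- and at 29.1, 22.1, 32.7 and 30.9 TPM in NSG libraries. The Rag2-/- libraries were above every NSG library and overlapped with WT, and the log2 fold changes were 0.23 ± 0.14 over WT and 0.34 ± 0.14 over NSG. The wider group of haem and iron genes held 27 genes, of which 22 were tested. Of these, 2 rose in Rag2-/- over WT and 0 fell, beside 1.14% of all genes called higher and 0.326% called lower. The 2 higher genes were Fbxl5, which controls the iron regulatory protein (49.5 ± 4.64 TPM in WT, 74.7 ± 9.03 in Rag2-/-, log2 fold change 0.58 ± 0.09, adjusted p = 0.00919), and the quinone reductase Nqo1 (1.51 ± 0.511 and 3.34 ± 0.402 TPM, 0.81 ± 0.19, adjusted p = 0.0426). Over NSG, 0 of the 22 were called with limma and 8 had an unadjusted p-value below 0.05. Nqo1 was at 3.01 ± 0.624 TPM in NSG libraries, above every WT library, and its log2 fold change of Rag2-/- over NSG was 0.12 ± 0.19 (adjusted p = 0.851), while Fbxl5 was at 54.0 ± 2.01 TPM in NSG libraries (0.45 ± 0.09, adjusted p = 0.0593). The ferritin chains, which store iron, were at 833 ± 18.3, 826 ± 82.7 and 744 ± 73.1 TPM for Ftl1, the most abundant of the list, and at 440 ± 8.49, 476 ± 31.3 and 433 ± 19.0 TPM for Fth1 in WT, Rag2-/- and NSG.

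Adgre1, the F4/80 antigen that defines mouse macrophages in flow cytometry, was at 56.98, 59.2, 57.2 and 56.4 TPM in WT, at 52.2, 54.5, 50.9 and 62.5 TPM in Rag2-/- and at 75.7, 50.4, 26.9 and 61.1 TPM in NSG libraries. The WT values were nearly equal, and the NSG values held both the highest and the lowest of the 12. Vcam1, an adhesion molecule of the macrophages on which red cell precursors mature, was at 35.4, 23.3, 31.5 and 25.6 TPM in WT, at 29.8, 31.2, 32.8 and 34.9 TPM in Rag2-/- and at 32.5, 26.1, 23.5 and 32.9 TPM in NSG libraries. For both genes all hosts overlapped, with log2 fold changes of Rag2-/- over WT and over NSG of -0.07 ± 0.23 and 0.13 ± 0.23 for Adgre1 and 0.16 ± 0.14 and 0.17 ± 0.14 for Vcam1. A stretch of 61 bases of the Vcam1 exons also belongs to Gm43109 on the other strand, and whether the counting used strand was not given in the sources used here.

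**Figure D3:**
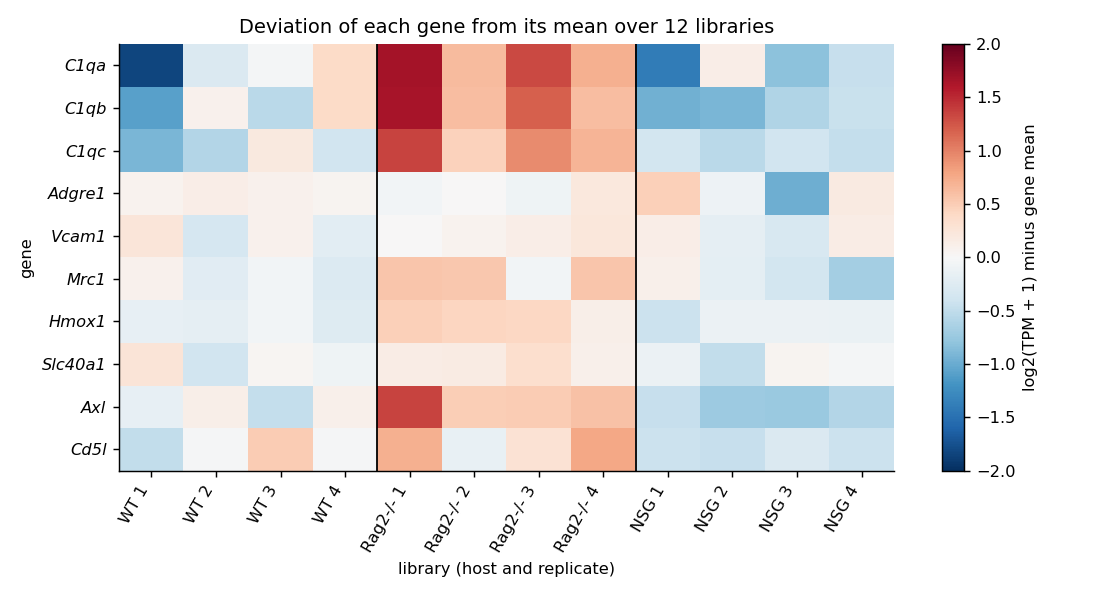
Deviation of log2(TPM + 1) of each gene (rows) from its mean over the 12 libraries (columns), with red above and blue below the mean and black lines between hosts. The C1q chains and Axl are red in all 4 Rag2-/- libraries and most strongly in replicate 1, and Adgre1 and Vcam1 show no such block.

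Calls in the fit over all genes needed a log2 fold change beyond 0.5 in either direction and an adjusted p-value below 0.05. Of the 10 genes, C1qc and Hmox1 were called higher in Rag2-/- over WT, beside 1.14% of the 15026 genes tested. Axl and Hmox1 were called higher in Rag2-/- over NSG, beside 0.193% of all genes. Axl, at means of 1.24 TPM in WT and 0.535 TPM in NSG libraries, passed the filter on low values only through the Rag2-/- libraries. In NSG over WT 0 of the 10 were called, with limma and with voom on recovered reads, beside 0% of all genes, of which 1377 had an unadjusted p-value below 0.05. No member was called lower, beside 0.326% of all genes in Rag2-/- over WT and 0.02% in Rag2-/- over NSG. Since the list was drawn up with these contrasts known, nothing is read from these counts, and both Rag2-/- comparisons share the same 4 Rag2-/- libraries. Leaving out WT replicate 2 or Rag2-/- replicate 1, 2 or 3 left 0 calls against WT, leaving out WT replicate 1 or 4 left 1, and leaving out NSG replicate 3 gave 3. Against NSG, leaving out Rag2-/- replicate 4 or NSG replicate 3 gave 3 calls, leaving out WT replicate 1 gave 1, and leaving out any of the other 9 libraries gave 0.

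The 4 libraries of the hosts did not overlap for 5 of the 10 genes in Rag2-/- over WT (C1qa, C1qb, C1qc, Hmox1 and Axl), beside 10.2% of all genes tested that were parted with Rag2-/- higher. In Rag2-/- over NSG 7 of the 10 were parted with Rag2-/- higher (the same 5 with Slc40a1 and Cd5l), beside 4.34% of all genes. In NSG over WT 0 of the 10 were parted in either direction, beside 4.59% of all genes. The median log2 fold change of the 10 genes was 0.52 in Rag2-/- over WT, 0.75 in Rag2-/- over NSG and -0.18 in NSG over WT, and the medians over all genes tested were 0.024, 0.013 and 0.0049. The log2 fold change was above 0 for 9, 10 and 0 of the 10 genes in that order. These signs were not all stable, since leaving out 1 library turned the sign of NSG over WT for 6 of the 10 genes (C1qa, C1qc, Adgre1, Vcam1, Hmox1 and Slc40a1, to at most 0.18) and that of Adgre1 in Rag2-/- over NSG (to -0.16). The (TPM + 1) scale understates the change of low genes, so with a pseudocount of 0.1 the log2 fold change in Rag2-/- over WT was 2.48 for C1qa and 1.90 for C1qc, and that in Rag2-/- over NSG was 2.27 for Axl.

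**Figure D4:**
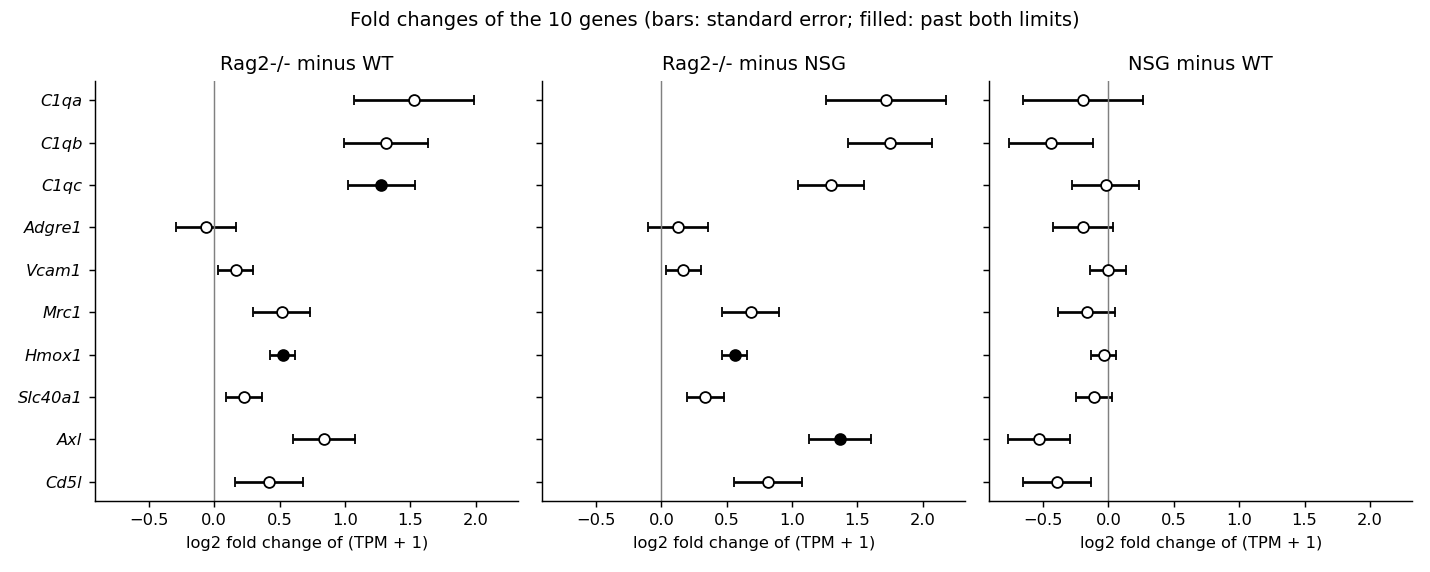
Log2 fold change of (TPM + 1) (horizontal axis) of the 10 genes in the 3 comparisons, with bars for the standard error of the fit and filled points for genes past both limits (C1qc and Hmox1 over WT, Axl and Hmox1 over NSG). Most points of both Rag2-/- comparisons are right of 0, and all points of NSG minus WT are at or left of 0. Axl passed the filter on low values only through the Rag2-/- libraries.

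Of 30 further genes of resident macrophages, 17 were tested and 13 had a mean under 1 TPM. Against WT, 3 rose in Rag2-/- libraries and 0 fell, beside 1.14% of all genes called higher. They were the lysosomal glycoprotein gene Cd68 (85.8 ± 10.3 TPM in WT, 126 ± 15.2 in Rag2-/-, log2 fold change 0.55 ± 0.11, adjusted p = 0.0240), the ficolin gene Fcna (0.797 ± 0.682 and 3.01 ± 1.10 TPM, 1.20 ± 0.29, adjusted p = 0.04996) and the phagosomal metal transporter gene Slc11a1 (5.56 ± 1.22 and 10.6 ± 2.95 TPM, 0.81 ± 0.19, adjusted p = 0.0436). All 3 were parted without overlap, and Fcna passed the filter on low values only through the Rag2-/- libraries. With limma, 0 of the 17 were called in Rag2-/- over NSG, where 6 had an unadjusted p-value below 0.05, and 0 in NSG over WT, where 7 did, while voom on recovered reads called 2 and 0. The medians of the 17 genes were 0.30, 0.24 and -0.12 in Rag2-/- over WT, Rag2-/- over NSG and NSG over WT. Against WT, leaving out replicate 2 or 3 of either host left 0 calls in this list, and leaving out WT replicate 1 or 4 or NSG replicate 2 or 4 left 1. Against NSG, leaving out Rag2-/- replicate 4 gave 3 calls, and leaving out WT replicate 2 or NSG replicate 3 gave 1.

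Of the 30 genes, Timd4, Marco, Vsig4, Spic, Folr2, Lyve1 and Stab2 were summed, a selection made after the values were seen that low levels helped to choose. They came to 0.136 to 1.16 TPM in WT, 0.777 to 2.32 TPM in Rag2-/- and 0.370 to 1.22 TPM in NSG libraries, on 76, 208 and 87 reads over the 4 libraries of each host. Marco, a scavenger receptor, was listed at 0 in every WT and NSG library, and Vsig4 and Folr2 were at 0 in every WT library. Spic, a factor needed by the macrophages that recycle red cells, was at 0.387 ± 0.387 TPM in WT, 0.692 ± 0.175 in Rag2-/- and 0.212 ± 0.0849 in NSG libraries. Other genes of the 30 were higher, with Treml4 at 0.501 ± 0.237, 2.00 ± 0.499 and 0.856 ± 0.594 TPM, Itgad at 0.664 ± 0.267, 1.37 ± 0.487 and 0.423 ± 0.148 TPM and Siglec1 at 0.811 ± 0.169, 0.981 ± 0.481 and 0.677 ± 0.0652 TPM in WT, Rag2-/- and NSG libraries. Cd163, the haemoglobin scavenger receptor, was at 10.3 ± 0.710, 10.1 ± 1.45 and 8.37 ± 1.26 TPM, and the prostaglandin-degrading enzyme gene Hpgd, the most abundant of the list, was at 3673 ± 191, 4869 ± 372 and 4599 ± 1041 TPM. In bulk RNA, fewer cells of a type and less RNA per cell cannot be told apart, and neither can a few host macrophages among the GFP+ cells and a low level in the leukemia cells themselves.

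Markers of other cells moved with the host as well. Of 12 neutrophil genes, 10 rose in Rag2-/- over WT and 8 over NSG, with 0 lower, beside 1.14% and 0.193% of all genes called higher. Their sum was 445 to 577 TPM in WT, 913 to 2363 TPM in Rag2-/- and 475 to 596 TPM in NSG libraries, with none of the 12 at 0 in every library. Lcn2 was the highest over the 12 libraries, while Csf3r was the highest in WT and NSG and S100a9 in Rag2-/- libraries. Among the Rag2-/- libraries, replicate 1 was the highest in both the C1q sum (28.4 TPM) and the neutrophil sum (2363 TPM). Replicate 3 came next in both (20.7 and 2225 TPM). The lowest neutrophil sum was in replicate 4 (913 TPM), and the lowest C1q sum was in replicate 2 (12.8 TPM), close to replicate 4 (13.6 TPM). Mpo, a myeloid precursor gene, was at 553 ± 38.1 TPM in WT, 145 ± 97.0 in Rag2-/- and 442 ± 203 in NSG libraries and fell in Rag2-/- over WT (log2 fold change -2.13 ± 0.39, adjusted p = 0.0189), the only called gene of the 10 leukemia and progenitor genes. Of 12 monocyte genes (11 tested), the matrix gene Fn1 rose (0.310 ± 0.104 and 4.61 ± 2.50 TPM, 1.96 ± 0.33, adjusted p = 0.0154) and Ly6c2 fell (601 ± 58.8 and 332 ± 114 TPM, -0.91 ± 0.22, adjusted p = 0.0461) in Rag2-/- over WT, and Fn1 also rose over NSG (1.83 ± 0.33, adjusted p = 0.0473). Fn1 was at a mean of 0.432 TPM in NSG libraries, so it passed the filter on low values only through the Rag2-/- libraries. Over all genes, 0.326% were called lower in Rag2-/- over WT. Chil3, the most abundant monocyte gene, was at 1946 ± 670 TPM in WT, 6070 ± 3106 in Rag2-/- and 2001 ± 577 in NSG libraries. The part of these cells in the values of the 10 genes was not tested.

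The other lists held few calls, and many of their genes were not tested. Of 8 B and plasma cell genes (4 tested), Igkc fell in Rag2-/- over WT (adjusted p = 0.0348), from 9.38 ± 8.29 TPM to 0 in 3 libraries and 0.295 TPM, or 1 read, in the fourth. Igkc was also low in NSG libraries (0.169 ± 0.338 TPM), all below every WT library. Its log2 fold change in NSG over WT was -2.65 ± 0.60 (limma adjusted p = 0.342, not called). It passed the filter on low values only through the WT libraries. The most abundant gene of the B and plasma cell list, Ighm, was at 183 ± 19.7, 164 ± 33.1 and 177 ± 43.6 TPM in WT, Rag2-/- and NSG. The 13 dendritic cell genes (4 tested), the 11 erythroid genes found in the file (3 tested) and the 12 genes of stroma and endothelium (3 tested) had 0 calls with limma in any comparison, with 2, 0 and 0 of them at an unadjusted p-value below 0.05 in Rag2-/- over WT. Their most abundant genes were Bst2 at 311 to 425 TPM, Hba-a1 at 1.56 to 2.61 TPM and Pecam1 at 132 to 143 TPM as host means. Cd74, of the dendritic cell list, had means of 1.00 TPM in WT, 4.16 in Rag2-/- and 1.64 in NSG libraries. It was parted from WT (log2 fold change 1.34 ± 0.34, limma adjusted p = 0.0560), while 2 of the 4 tested dendritic cell genes were above 0. Car1, an untested erythroid gene, was at 0.533 to 1.93 TPM in Rag2-/- libraries, on 46 reads together, and at 0 in all WT and NSG libraries. None of the 10 T and NK cell genes was tested, since their means over the 12 libraries were under 1 TPM. Their sum was 0.366 to 1.49 TPM in WT, 1.72 to 4.87 TPM in Rag2-/- and 0.409 to 2.69 TPM in NSG libraries. Gzma, a granule enzyme gene of cytotoxic cells and the highest of the list over the 12 libraries, was at 0.624 to 2.39 TPM in Rag2-/- libraries, at 0 in all 4 WT libraries and at 0 in 3 of the 4 NSG libraries. Ncr1, a receptor gene of NK cells, was at 0.108 to 0.531 TPM in Rag2-/- libraries, on 2 to 6 reads each, and at 0 in all WT and NSG libraries. Klrb1c, of the same list, was found in every host, with means of 0.410, 0.927 and 0.272 TPM in WT, Rag2-/- and NSG. Cd3d went the other way, at 0.282, 0.0276 and 0.369 TPM in the same order, on at most 6 reads in a library. Whether these cells contributed to the 10 genes was not tested.

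**Figure D5:**
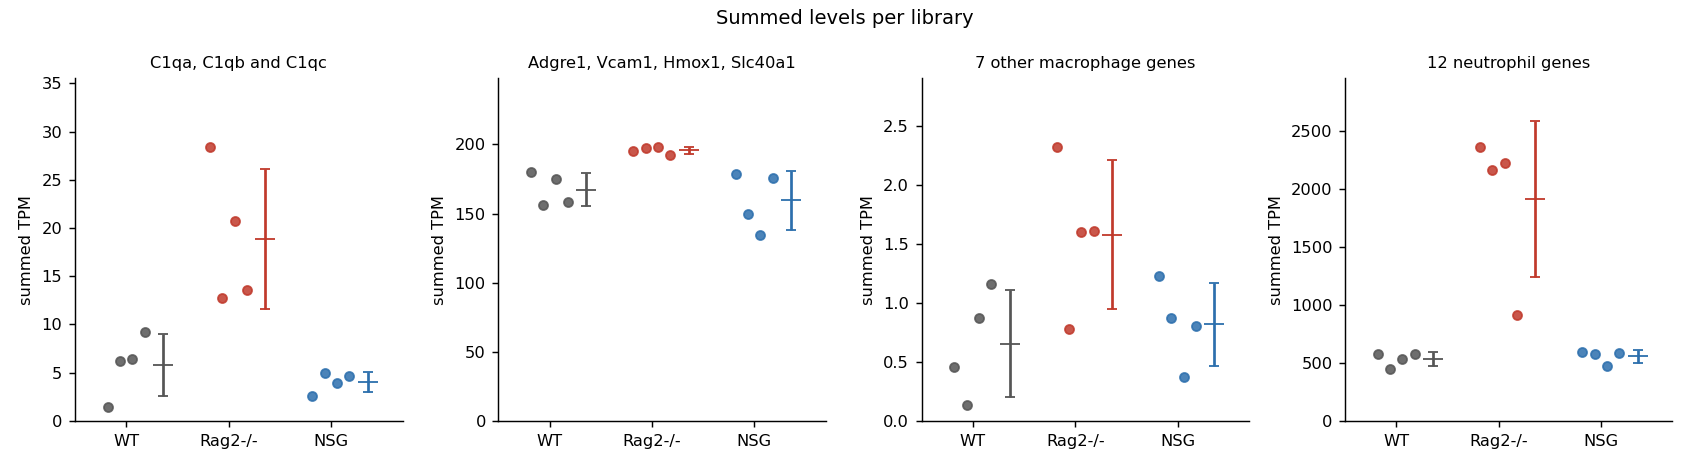
Summed TPM per library (vertical axes from 0) of the 3 C1q genes, of the 4 abundant genes of the 10, of 7 other macrophage genes chosen after the values were seen (Timd4, Marco, Vsig4, Spic, Folr2, Lyve1 and Stab2) and of 12 neutrophil genes, with the mean ± SD (n = 4) beside the points. The Rag2-/- libraries lie above all WT and NSG libraries in the C1q sum, the sum of the 4 abundant genes and the neutrophil sum. Of the 4 abundant genes, only Hmox1 was parted in this way on its own. They overlap with the other hosts in the sum of the 7 other macrophage genes.

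Among all genes tested, those whose log2(TPM + 1) over the 12 libraries was most like the mean of the 10 genes were Ltf (Pearson's r = 0.96), Retnlg (0.94), Ngp (0.92), S100a9 (0.91) and Lyn (0.91). Ltf, Retnlg, Ngp and S100a9 are neutrophil genes, and Lyn is a kinase of myeloid and B cells. Much of this likeness lay between hosts, since after the host means were removed r was 0.64, 0.38, 0.43, 0.42 and 0.06 in the same order. For single genes, the closest were Rubcnl for C1qa (0.95), Plbd1 for C1qb (0.91), Nsf for C1qc (0.93), Ltf for Axl (0.91), Apbb1ip for Mrc1 (0.85), Pom121 for Cd5l (0.90), Itgb2l for Hmox1 (0.97), AC122861.4 for Slc40a1 (0.93), Cpt1a for Adgre1 (0.94) and Gsr for Vcam1 (0.89). The next closest were Snora57, Ltf, Itgb2l, Retnlg, Eef1a1, Lgmn, Slc2a6, Traf3, Pdcd4 and Gm37419 in that order. The genes compared were measured in the same libraries, which differ in depth and host, and no test was made.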

How the data were processed

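RNA-seq of GFP+ MLL-AF9 cells was analysed in 12 libraries, 4 per host. The deposited values are TPM, which the authors computed from raw gene counts after alignment to mm10 with HISAT2 on Galaxy. The counting tool, the annotation and the gene lengths are not given in the sources used here. Multiplied by exon lengths of GENCODE M21 (GRCm38), 98.6% to 98.9% of the values under 20 reads per library came out whole within 0.02 reads, and 65.7% to 68.8% of these were even, so that both mates of a pair may have been counted. Symbols were matched for 55141 of 55401 genes, and promoter windows came from RefSeq.

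The 10 genes and all gene lists were chosen with earlier results of these data known. Log2(TPM + 1) was fitted with limma 3.58.1 in R 4.3.3 (trend, no covariate, all libraries in 1 fit) for the 15026 genes whose mean reached 1 TPM. P-values were adjusted after Benjamini and Hochberg, separately per comparison, and the fit was tested on simulated data. All 10 genes passed this filter, Axl only through the Rag2-/- libraries. The labels call the libraries biological replicates without naming separate mice, so errors and p-values measure the spread between these libraries. Named were the 10 genes, list genes that were called, the most abundant gene of each list, and the genes most correlated with the 10, the 5 closest to their mean and 2 for each. Others (complement enzymes, Fcnb, Axl partners, Spi1, Hoxa9, Fth1, Cd163, Spic, Treml4, Itgad, Siglec1, Cd74, Car1, Ncr1, Klrb1c, Cd3d, Csf3r, Rag2 and the 7 summed macrophage genes) were added after their values were seen. Alternatives were another pseudocount, other filters and scalings, no trend, 8 libraries alone, the replicate block, no fold limit and each library left out, and, chosen after seeing the data, voom on recovered reads and another split of the libraries. Python 3.11.15 with pandas 2.3.3, scipy 1.17.1 and matplotlib 3.10.9 served for the rest.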

Additional observations from a re-analysis of the deposited data

Results flagged for a closer look

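Among 93 groups of 4 libraries (a gene in a host), 9 had a library whose distance from its nearest neighbour, as a share of the range of the group, exceeded Dixon's limit for 4 values, and chance flags about 1 in 20 groups, or 4.65 here. Among the 10 genes, the share was 0.974 for Mrc1 (Rag2-/- replicate 3 lowest), 0.975 for Hmox1 (NSG replicate 1 lowest) and 0.912 for Axl (Rag2-/- replicate 1 highest). Among the other genes, it was 0.957 for Cd68 (WT replicate 2 lowest), 0.852 for Fn1 (NSG replicate 3 lowest), 0.856 for Nqo1 (NSG replicate 1 highest), 0.861 for Retnlg (Rag2-/- replicate 4 lowest), and 1.00 for Igkc in both Rag2-/- (replicate 2 highest) and NSG (replicate 1 highest), where the other 3 libraries were listed at 0.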

How the results depend on the processing

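The 30 log2 fold changes of the 10 genes were recomputed in 642 alternatives, of which 624 moved them by less than 1 SD, 18 by more (with a pseudocount of 0.1 or voom, for genes under 5 TPM) and 0 turned a called value, though values that were not called changed sign for 6 of the 10 genes in NSG over WT with 1 library left out. The counts of called genes were less stable. In Rag2-/- over NSG, 2 of the 10 were called, 0 with a pseudocount of 0.1, all genes above 0 TPM, quantile normalization, median-ratio scaling or the 8 libraries alone, 1 with at least 1 TPM in every library (where 4 of the 10 were tested), without the trend or with another split as a factor (Rag2-/- 3 and 4 and NSG 1 and 2 on one side, chosen with earlier results of these data known), and 4 with voom on recovered reads. In Rag2-/- over WT, 2 were called, and 1 with all genes above 0 TPM, at least 1 TPM in every library or the other split. Each library left out in turn gave 0 to 3 in both comparisons. For the 30 further macrophage genes, 3 were called in Rag2-/- over WT, 0 with all genes above 0 TPM or the other split, 1 with quantile normalization, 6 with voom (5 higher, 1 lower) and 0 to 4 with each library left out. In Rag2-/- over NSG 0 were called, 1 with the other split or a level of 1 TPM in every library, 2 with voom and 0 to 3 with each library left out. In NSG over WT, both lists had 0 calls in every alternative. The cause of these changes was not tested.

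The replicate number did not pair the libraries, since deviations of same-numbered libraries correlated at -0.0906 to 0.0318 and 0 of 12 libraries correlated best with its own number. With the replicate block, 2 of the 10 genes were called in Rag2-/- over WT, 0 in Rag2-/- over NSG, and 0 of the further macrophage genes in either. Depth limits the C1q, Axl, Mrc1 and Cd5l values most, where a library held as few as 0 to 39 reads for a gene.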
